A study of Mus musculus with 6 samples.

Results

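Transcripts of mitosis and the spindle checkpoint were compared between the thymus of RUNX2/MYC mice and that of wild-type (WT) mice. A list of 40 genes was used, chosen by gene name for their known part in cell division. A gene was measured through the brightest Affymetrix probe set that the platform annotation pairs with its symbol alone, and 39 of the 40 genes had one, out of 19938 genes measured in this way on the array. Ccnb1, which encodes cyclin B1, had none and was not analysed here. The RUNX2/MYC group held 3 arrays of whole thymus from 10-day-old mice carrying both the CD2-Myc and CD2-Runx2 transgenes, and the WT group held 3 arrays of whole thymus from C57/CBA mice of the same age without the transgenes, all on the C57BL6/CBA background. The CD2 control region drives both transgenes in T cells and their lymphoid precursors, so each value averages transgenic T-lineage cells with epithelium and every other cell type present. Arrays of a group are labelled as separate biological replicates, and littermates served as controls according to the methods.

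The Runx2 probe set had log2 signals of 11.73, 11.78 and 11.96 in RUNX2/MYC and 7.94, 7.94 and 7.93 in WT, with no overlap between the groups. For mouse Myc, whose probe set need not detect a MYC transgene, the log2 signals were 10.51, 10.88 and 10.55 in RUNX2/MYC and 11.00, 11.26 and 11.12 in WT. Thymocyte markers were present in both groups, and 9 of the 13 measured had a negative log2 fold change (median -0.19), 4 of them at an unadjusted p under 0.05 (Cd4 -0.74, Rag1 -0.62, Rag2 -0.55 and Dntt -0.52) and none at an adjusted p under 0.05, while 1 was higher at that unadjusted p (Cd3d 0.32). The 75th percentile of the log2 signals lay between 8.85 and 9.04 over the 6 arrays.

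Cells enter mitosis when CDK1 is joined by A- and B-type cyclins and freed of inhibitory phosphates by CDC25 phosphatases. The spindle checkpoint holds chromosomes back until every kinetochore is attached, and CDC20 and separase then release the sister chromatids. In the thymus such transcripts come mainly from dividing immature thymocytes, which pass through a burst of division after rearranging their T-cell receptor β chain. Many genes of this set are transcribed late in the cell cycle, through CCAAT boxes bound by NF-Y and through a cell cycle genes homology region (CHR) bound by complexes of the DREAM family.

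Promoter sequences are shown for 7 of the genes, because most of the members' promoters hold at least 1 of these short motifs; the 7 were picked among those that hold both. RefSeq promoters of the mouse build GRCm38.p6, which run from 250 bases before to 50 bases after the start, were found for 31 of the 40 genes (33 promoters). Each line gives 120 bases before the start and the first 15 from it, 5′ to 3′ on the strand of the gene, and capitals mark TTTGAA (the core of the CHR) or CCAAT read on either strand, so that TTCAAA and ATTGG are also in capitals.
Ccnb2 (chr9:70421540-70421674, minus strand): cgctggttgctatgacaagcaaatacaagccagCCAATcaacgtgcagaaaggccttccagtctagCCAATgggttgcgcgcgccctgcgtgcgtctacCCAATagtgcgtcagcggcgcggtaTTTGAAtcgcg
Cdk1 (chr10:69352898-69353032, minus strand): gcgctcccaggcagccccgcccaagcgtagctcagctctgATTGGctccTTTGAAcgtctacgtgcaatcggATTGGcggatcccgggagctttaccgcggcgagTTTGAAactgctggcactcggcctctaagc
Ttk (chr9:83834569-83834703, plus strand): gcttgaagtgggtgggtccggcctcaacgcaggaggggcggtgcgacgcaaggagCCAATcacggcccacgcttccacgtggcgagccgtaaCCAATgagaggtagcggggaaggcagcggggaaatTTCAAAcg
Cdc20 (chr4:118437329-118437463, minus strand): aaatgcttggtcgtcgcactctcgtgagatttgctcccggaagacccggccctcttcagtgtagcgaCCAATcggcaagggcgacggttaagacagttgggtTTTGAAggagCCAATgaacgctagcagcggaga
Cenpf (chr1:189688072-189688206, minus strand): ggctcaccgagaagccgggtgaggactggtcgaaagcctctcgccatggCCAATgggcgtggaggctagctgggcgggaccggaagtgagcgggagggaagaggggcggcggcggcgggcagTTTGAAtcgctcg
Kif11 (chr19:37376262-37376396, plus strand): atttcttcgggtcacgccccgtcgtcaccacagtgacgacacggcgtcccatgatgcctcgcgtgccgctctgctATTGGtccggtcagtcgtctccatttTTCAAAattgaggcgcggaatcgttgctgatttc
Top2a (chr11:99024175-99024309, minus strand): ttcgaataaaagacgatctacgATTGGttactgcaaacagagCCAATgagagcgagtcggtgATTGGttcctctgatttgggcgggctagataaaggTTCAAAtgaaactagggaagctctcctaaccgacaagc

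Over the whole promoter window TTTGAA was found on either strand in 23 of the 33 promoters (69.7%), against 17.9% of all 32851 promoters. It lay within 50 bases of the start in 20 of the 33, against 4.94% of all promoters. CCAAT was found in 24 of the 33 (72.7%), against 37.4% of all, and both motifs together in 20, against 6.95% of all. In 0 of the 33 did a TTTGAA match and a CCAAT match share a base. CACGTG, the E-box that MYC can bind, was found in 3 promoters (9.09%, those of Anln, Espl1 and Ttk), against 7.15% of all. TGTGGT, the core of the RUNX motif, was also found in 3 promoters (9.09%, those of Kif11, Kif2c and Plk1), against 16.8% of all. These are matches of letters and were not tested as binding sites.

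Mitotic transcripts were detected in both groups, with all 39 members above the median signal of every array, and differed little between the groups. None of the 39 members passed an adjusted p under 0.05 in the limma fit over all probe sets, where 2.27% of all genes were called higher in RUNX2/MYC and 0.0953% lower. The smallest adjusted p was that of Bub1 (0.232). At an unadjusted p under 0.05, 1 member was higher (Bub1) and 0 were lower, against 13.2% and 8.01% of all genes. Arrays of the groups did not overlap for 4 members that were higher in RUNX2/MYC (Cdc25b, Plk1, Bub1 and Bub3) and 1 that was lower (Ccna2), where 15.5% and 11.2% of all genes had no such overlap. Because whole organs were measured, fewer cells of a type and less RNA per cell cannot be told apart in these values.

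The log2 fold changes (RUNX2/MYC over WT) of the 39 members ran from -0.20 for Ncapd2 to 0.31 for Espl1, with a median of 0.044, against -0.065 over all genes. Of the 39, 25 were positive and 14 negative, where 40.2% of all genes were positive, and 22 were smaller than 0.1 in size. The sign of the median turned with the scaling of the arrays. It was -0.053 when arrays were centred on their 75th percentile (all genes -0.16) and 0.13 under median centring (all genes 0.019). After quantile normalization it was -0.045 (all genes -0.031), and after cyclic loess -0.09 (all genes -0.017). The members' median thus lay above that of all genes as deposited and after centring. After quantile normalization and cyclic loess it lay below. All genes here include dim ones, and the comparison depended on them. Over the 10797 genes left by a filter on probe sets below the median signal, the median as deposited was 0.091. The members' median of 0.044 lay below that, and all 39 members passed the filter. Standard errors (SE) ran from 0.084 to 0.20, and the 95% intervals of 38 members included 0, all but that of Bub1. At the deposited scaling, the intervals put limits on the change that could have been missed. They carry no uncertainty from the scaling of the arrays, and intervals under the other scalings are not given. All 39 excluded a 2-fold change in either direction (so did those of 97.7% of all genes) and a fall of 1.5-fold, and 37 excluded a rise of 1.5-fold, the other 2 being Pttg1 and Espl1.

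**Figure D1:**
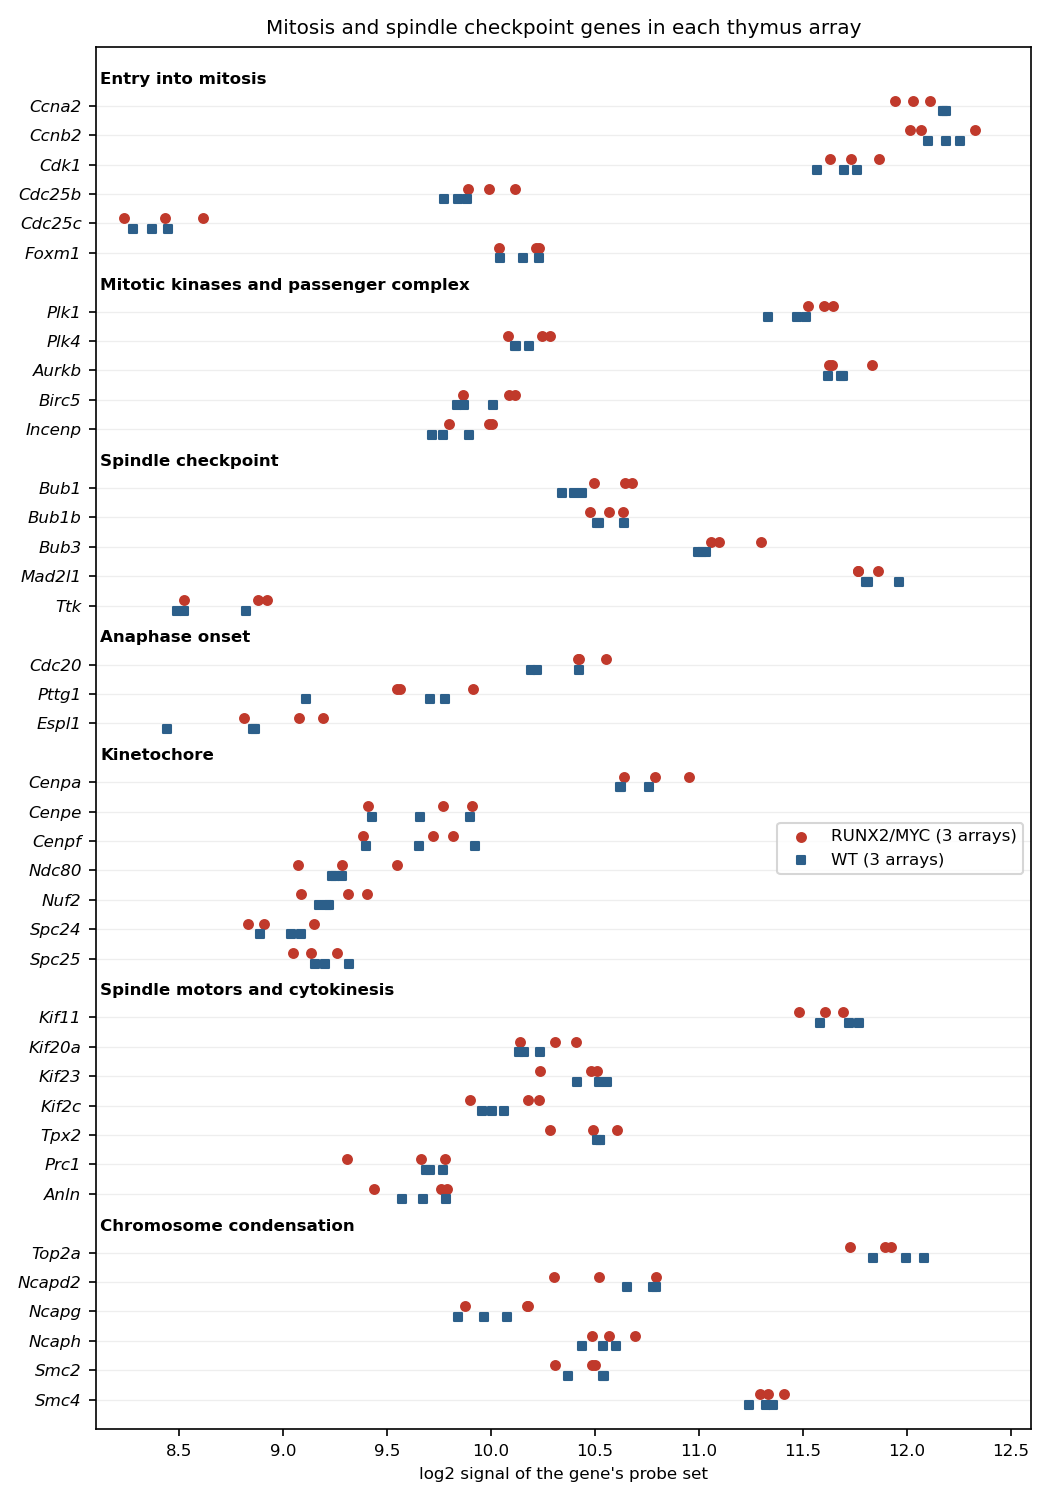
Log2 signal of each of the 39 members (rows, grouped by role) on the 3 RUNX2/MYC arrays (red circles) and the 3 WT arrays (blue squares). The gene means run from 8.40 to 12.16, and the arrays of the groups overlap for all but 5 genes.

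**Figure D2:**
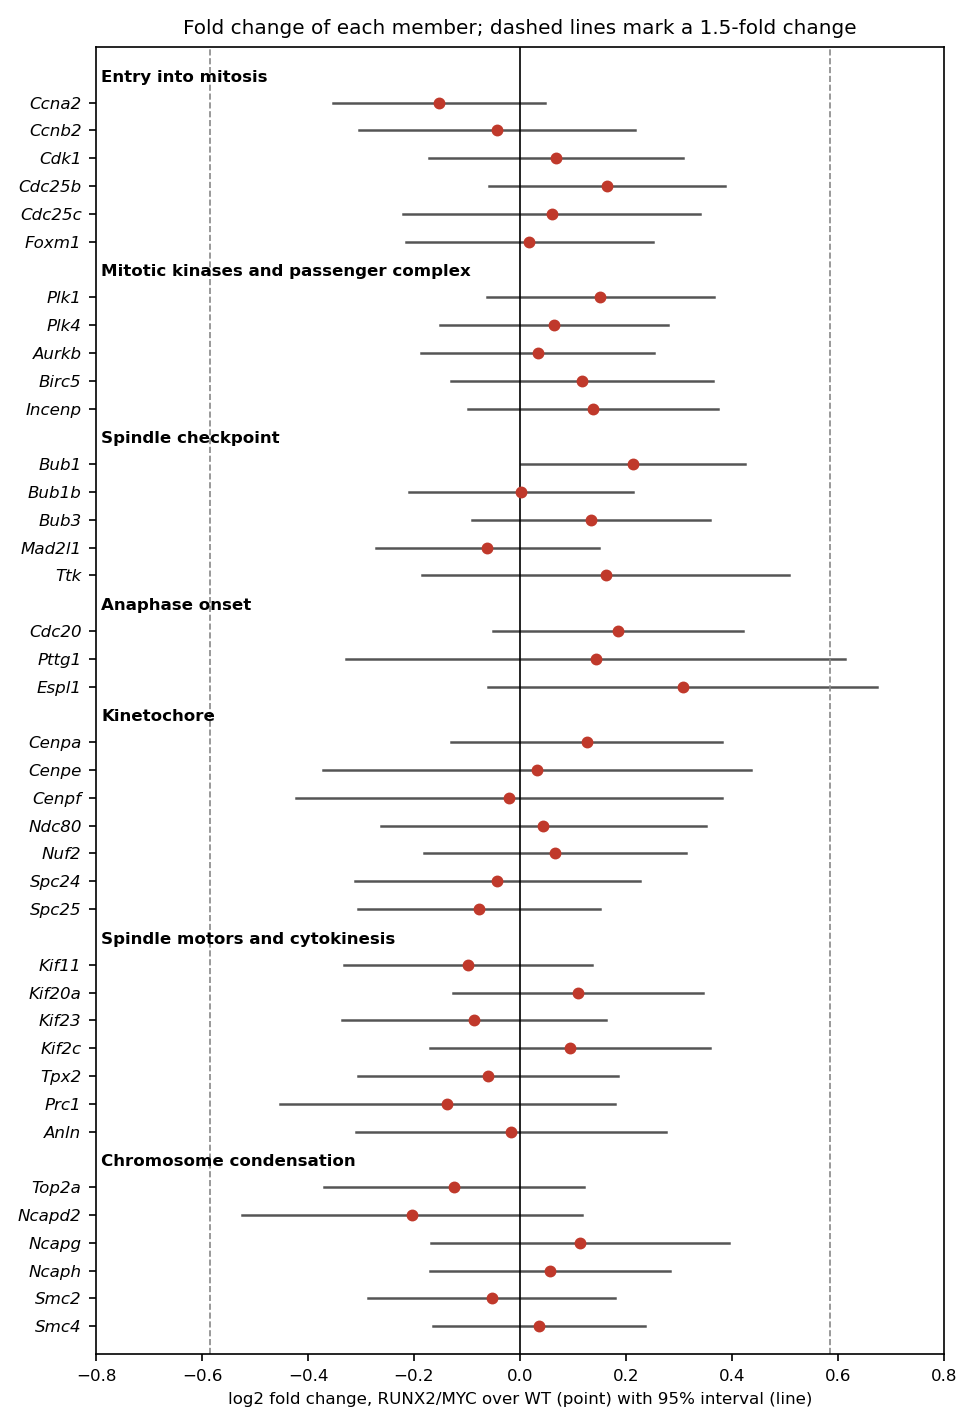
Log2 fold change of each member (points, RUNX2/MYC over WT, values as deposited) with its 95% interval from limma (lines) and dashed lines at a 1.5-fold change. All but 1 interval, that of Bub1, include 0, and all lie within -0.53 and 0.67.

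Among the genes of entry into mitosis, 6 were measured, with a median log2 fold change of 0.039 and 4 of 6 positive (1 of 6 under 75th percentile centring and 2 of 6 after cyclic loess). Ccna2, which encodes the cyclin A2 of S phase and early mitosis, had log2 signals of 11.94, 12.11 and 12.03 in RUNX2/MYC and 12.19, 12.18 and 12.18 in WT. All 3 RUNX2/MYC arrays were below all WT arrays, by a log2 fold change of -0.15 (SE 0.085, adjusted p = 0.317). Cdk1, the kinase that drives mitotic entry, had log2 signals of 11.63, 11.87 and 11.73 in RUNX2/MYC and 11.76, 11.70 and 11.57 in WT. The groups overlapped, and the log2 fold change was 0.068 (95% interval -0.17 to 0.31, adjusted p = 0.68).

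Cdc25b, a phosphatase that activates CDK1, had log2 signals of 9.89, 10.11 and 9.99 in RUNX2/MYC and 9.78, 9.84 and 9.89 in WT. The lowest RUNX2/MYC array was just above the highest WT array, and the log2 fold change was 0.16 (SE 0.094, adjusted p = 0.327). Foxm1, a transcription factor of late cell cycle genes, had log2 signals of 10.04, 10.23 and 10.22 in RUNX2/MYC and 10.16, 10.23 and 10.04 in WT, which cover almost the same range (log2 fold change 0.018, 95% interval -0.22 to 0.25). Ccnb2, which encodes the CDK1 partner cyclin B2, had a log2 fold change of -0.044. That of Cdc25c, another CDK1-activating phosphatase, was 0.061, and both had overlapping arrays.

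The 5 genes of mitotic kinases and the chromosomal passenger complex all had positive log2 fold changes, from 0.033 to 0.15 with a median of 0.12. When arrays were centred on their 75th percentile 3 of the 5 stayed positive, and after cyclic loess 1 did. Plk1, the polo-like kinase of centrosome maturation and cytokinesis, had log2 signals of 11.53, 11.64 and 11.60 in RUNX2/MYC and 11.51, 11.47 and 11.33 in WT. The groups did not overlap, although RUNX2/MYC replicate 1 and WT replicate 1 were nearly level, and the log2 fold change was 0.15 (SE 0.091, adjusted p = 0.341). Aurkb, the kinase of the passenger complex, had log2 signals of 11.64, 11.83 and 11.63 in RUNX2/MYC and 11.68, 11.70 and 11.62 in WT. Only RUNX2/MYC replicate 2 lay outside the range of the WT arrays (log2 fold change 0.033, 95% interval -0.19 to 0.25). Birc5, which encodes survivin, the subunit that brings the complex to centromeres, had log2 signals of 9.86, 10.11 and 10.09 in RUNX2/MYC and 9.87, 9.84 and 10.01 in WT. RUNX2/MYC replicate 1 lay among the WT arrays, and the log2 fold change was 0.12 (adjusted p = 0.497). The scaffold gene Incenp and Plk4, the kinase of centriole duplication, had log2 fold changes of 0.14 and 0.065 with overlapping arrays.

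Of the 5 spindle checkpoint genes 4 had a positive log2 fold change (3 of 5 under 75th percentile centring and 2 of 5 after cyclic loess), and the median was 0.13. Bub1, a checkpoint kinase at the kinetochore, had log2 signals of 10.50, 10.65 and 10.68 in RUNX2/MYC and 10.40, 10.34 and 10.44 in WT. Each RUNX2/MYC array was above every WT array, and the log2 fold change was 0.21 (SE 0.089, unadjusted p = 0.0481 and adjusted p = 0.232 from limma). Ttk, the MPS1 kinase that starts checkpoint signalling, had log2 signals of 8.52, 8.92 and 8.88 in RUNX2/MYC and 8.49, 8.52 and 8.82 in WT. Replicate 1 of RUNX2/MYC and replicate 3 of WT crossed over, and the log2 fold change was 0.16 (SE 0.15, adjusted p = 0.501). Mad2l1, whose product holds CDC20 inactive, had log2 signals of 11.77, 11.86 and 11.77 in RUNX2/MYC and 11.96, 11.80 and 11.81 in WT. It was the member of this group with a negative log2 fold change (-0.061, 95% interval -0.27 to 0.15). Bub3, which brings BUB1 to kinetochores, had a log2 fold change of 0.13 without overlap of the arrays (11.06 to 11.30 in RUNX2/MYC, 11.00 to 11.03 in WT, adjusted p = 0.404). Bub1b, which encodes the BUB1-related BUBR1, had a log2 fold change near 0 (0.0022, 95% interval -0.21 to 0.21).

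The 3 genes of anaphase onset had log2 fold changes of 0.14 to 0.31, with a median of 0.19, and all 3 were positive in every scaling but cyclic loess, where 2 of 3 were. Espl1, which encodes separase, the protease that cleaves cohesin, had log2 signals of 8.81, 9.08 and 9.19 in RUNX2/MYC and 8.44, 8.85 and 8.86 in WT. This was the largest log2 fold change of the members (0.31, SE 0.16, adjusted p = 0.287), and RUNX2/MYC replicate 1 lay below WT replicates 2 and 3. Without WT replicate 1 it was 0.17, below those of Cdc20 (0.26) and Pttg1 (0.27) in that setting. Cdc20, the activator of the anaphase-promoting complex, had log2 signals of 10.42, 10.55 and 10.42 in RUNX2/MYC and 10.43, 10.19 and 10.22 in WT. WT replicate 1 was level with the lower RUNX2/MYC arrays, and the log2 fold change was 0.19 (SE 0.10, adjusted p = 0.309). Pttg1, which encodes securin, the inhibitor of separase, had log2 signals of 9.55, 9.92 and 9.56 in RUNX2/MYC and 9.78, 9.71 and 9.11 in WT. WT replicate 3 was far below the other WT arrays, so that Pttg1 had the widest spread in WT (SD 0.37) and an interval of -0.33 to 0.61 around a log2 fold change of 0.14. Without that array the log2 fold change was -0.067, and with array weights (arrays weighted by their estimated quality) it was -0.062.

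For the 7 kinetochore genes the median log2 fold change was 0.033, with 4 of 7 positive (7 of 7 under median centring, 1 of 7 under 75th percentile centring and 0 of 7 after cyclic loess), and the arrays of the groups overlapped for each of them. Cenpa, the histone H3 variant that marks centromeres, had log2 signals of 10.64, 10.95 and 10.79 in RUNX2/MYC and 10.76, 10.62 and 10.62 in WT. The log2 fold change was 0.13 (SE 0.11, adjusted p = 0.481), with RUNX2/MYC replicate 1 inside the WT range. Ndc80, the microtubule-binding subunit of the outer kinetochore, had log2 signals of 9.07, 9.55 and 9.28 in RUNX2/MYC and 9.24, 9.25 and 9.28 in WT. Its 3 RUNX2/MYC arrays lay on both sides of 3 nearly equal WT arrays, with an SD of 0.24 in RUNX2/MYC and 0.025 in WT and a log2 fold change of 0.044. The other subunits of that complex, Nuf2, Spc24 and Spc25, had log2 fold changes of 0.066, -0.043 and -0.077. Cenpe, a kinetochore motor, and Cenpf, a large coiled-coil protein, had log2 fold changes of 0.033 and -0.02 and varied in both groups (SD 0.26 in RUNX2/MYC and 0.24 in WT for Cenpe, 0.23 in RUNX2/MYC and 0.26 in WT for Cenpf).

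The 7 genes of spindle motors and cytokinesis had a median log2 fold change of -0.06, with 2 of 7 positive, which turned to 0.024 with 4 of 7 positive under median centring. It was -0.16 under 75th percentile centring (1 of 7 positive) and after quantile normalization (2 of 7), and -0.21 after cyclic loess (0 of 7). Kif11, the kinesin that pushes spindle poles apart, had log2 signals of 11.48, 11.69 and 11.61 in RUNX2/MYC and 11.58, 11.72 and 11.77 in WT. The groups overlapped (log2 fold change -0.097, 95% interval -0.33 to 0.14). Tpx2, a spindle assembly factor that activates Aurora A, had log2 signals of 10.28, 10.61 and 10.49 in RUNX2/MYC and 10.51, 10.52 and 10.53 in WT. The WT arrays were almost identical (SD 0.0073) and the RUNX2/MYC arrays spread around them (SD 0.16), at a log2 fold change of -0.06. Prc1, which bundles microtubules of the central spindle, had log2 signals of 9.30, 9.66 and 9.78 in RUNX2/MYC and 9.69, 9.70 and 9.77 in WT. RUNX2/MYC replicate 1 was well below the other 5 arrays, and the log2 fold change of -0.14 (SE 0.13, adjusted p = 0.531) was 0.0018 when that array was left out. Kif20a, a kinesin of cytokinesis, and Kif2c, a kinesin that takes microtubules apart, had log2 fold changes of 0.11 and 0.094. Kif23, the motor of centralspindlin, and Anln, a scaffold of the contractile ring, had log2 fold changes of -0.087 and -0.016.

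Among the 6 genes of chromosome condensation 3 were positive and 3 negative, with a median log2 fold change of -0.0083. The median was 0.076 under median centring (4 of 6 positive), -0.10 under 75th percentile centring (1 of 6), -0.11 after quantile normalization (1 of 6) and -0.15 after cyclic loess (0 of 6). Ncapd2, a condensin I subunit, had log2 signals of 10.30, 10.52 and 10.79 in RUNX2/MYC and 10.66, 10.80 and 10.78 in WT. It had the most negative log2 fold change of the members (-0.20, SE 0.14, adjusted p = 0.382), with RUNX2/MYC replicate 3 among the WT arrays. Without RUNX2/MYC replicate 1 it was -0.085, less negative than that of Ccna2 (-0.11) in that setting, and with array weights it was -0.072. Top2a, the topoisomerase that untangles sister chromatids, had log2 signals of 11.73, 11.89 and 11.92 in RUNX2/MYC and 11.84, 12.00 and 12.08 in WT (log2 fold change -0.12, adjusted p = 0.473). It was the only member with 2 probe sets, and the other one was dim (4.40 to 4.80 in RUNX2/MYC and 4.17 to 4.74 in WT, log2 fold change 0.099). Smc2, a core condensin subunit, had log2 signals of 10.31, 10.49 and 10.50 in RUNX2/MYC and 10.37, 10.54 and 10.54 in WT, which overlapped (log2 fold change -0.053, 95% interval -0.29 to 0.18). Smc4, its partner, had a log2 fold change of 0.037, and the condensin I subunits Ncapg and Ncaph of 0.11 and 0.057.

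The members moved together from array to array within RUNX2/MYC. Their mean log2 signal was 10.20, 10.46 and 10.39 on RUNX2/MYC replicates 1 to 3 and 10.29, 10.32 and 10.34 on WT replicates 1 to 3. The group means were 10.35 ± 0.13 in RUNX2/MYC and 10.31 ± 0.027 in WT (SD, n = 3 each), so that the difference of 0.038 was smaller than the spread of the RUNX2/MYC arrays. Replicate 1 was the lowest RUNX2/MYC array for 37 of the 39 members and replicate 2 the highest for 28. Of the 6974 genes with a mean signal in the range of the members, replicate 1 was the lowest for 77.7% and replicate 2 the highest for 62%, and over all genes these shares were 40.9% and 35.4%. The 113 other mitosis genes measured had the same order, with 103 lowest on replicate 1 and 84 highest on replicate 2. After centring of the arrays on their 75th percentile, replicate 1 was still the lowest RUNX2/MYC array for 27 of the 39. Among the 3 RUNX2/MYC arrays all 7 roles were lowest on replicate 1, and 6 were highest on replicate 2, the exception being chromosome condensation. Replicate 1 was not the lowest of all 6 arrays for each role. The anaphase onset genes were lower on all 3 WT arrays. As mean deviations from WT, the mitotic kinase and passenger genes were slightly lower on WT replicates 1 and 2 (-0.0087 and -0.0096, against -0.007). The spindle checkpoint genes were lower on WT replicate 2 (-0.047, against -0.024).

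**Figure D3:**
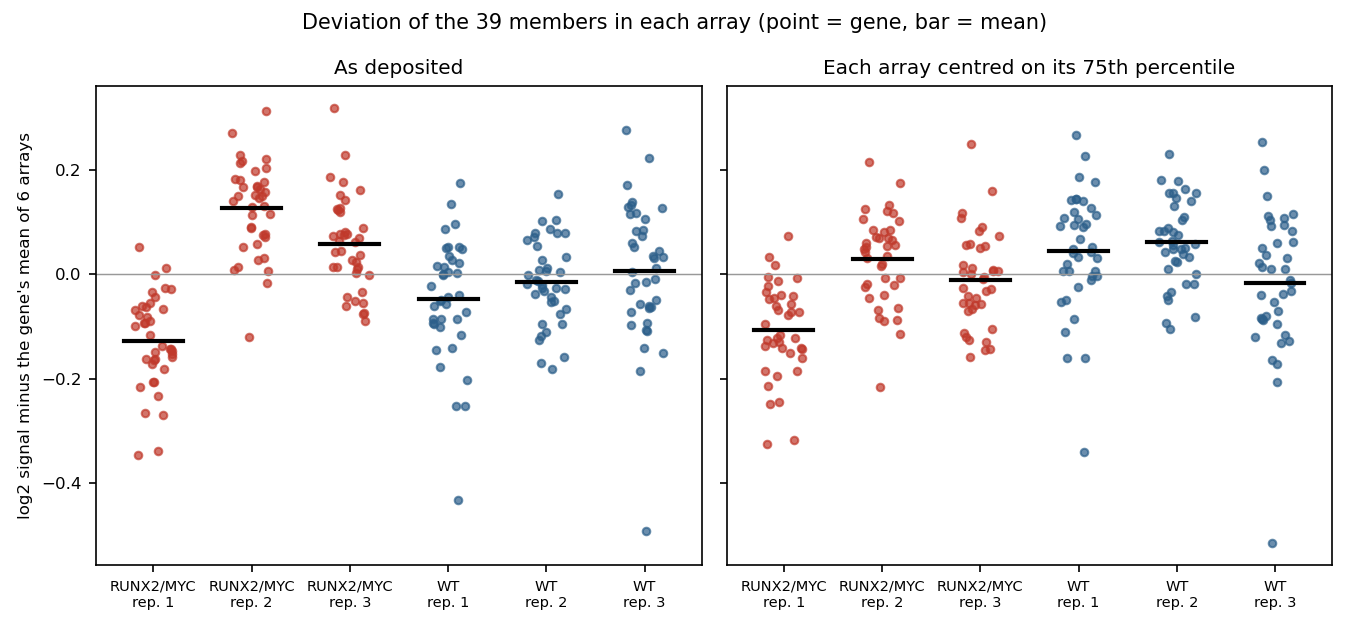
Deviation of each member's log2 signal from its mean over the 6 arrays, as deposited (left panel) and after centring of the arrays on their 75th percentile (right panel). Points are the 39 genes and bars their mean: RUNX2/MYC replicate 1 was the lowest of its group for 37 genes as deposited and for 27 after centring.

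The SD of the 3 arrays was larger in RUNX2/MYC than in WT for 31 of the 39 members (79.5%), with a median SD of 0.14 in RUNX2/MYC and 0.085 in WT. For the 113 other mitosis genes the share was 65.5% (74 genes), over all genes in the members' signal range it was 52.2%, and over all genes 52%. Cenpe had the largest SD in RUNX2/MYC (0.26), and Mad2l1 the smallest (0.054). These shares depended on the scaling of whole arrays, for the members and for all genes in their signal range alike. Under median centring 35 members (89.7%) had the larger SD in RUNX2/MYC, against 64.2% of the genes in that range. The members' share was 61.5% (24 genes) after quantile normalization, against 41.1%, then 53.8% (21 genes) under 75th percentile centring, against 43%, and 51.3% (20 genes) after cyclic loess, against 40.9%. With each array centred on its mean over the members, a setting added after seeing the data, 14 did, at a median SD of 0.059 in RUNX2/MYC and 0.073 in WT. With 3 arrays in a group no test of a single gene's spread was made.

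**Figure D4:**
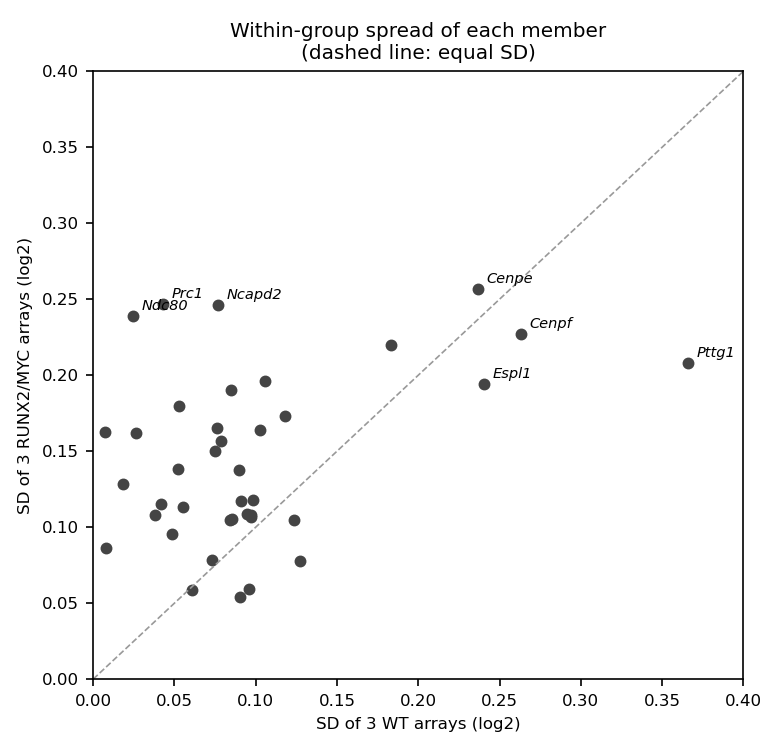
SD of the log2 signal over the 3 RUNX2/MYC arrays (vertical axis) and over the 3 WT arrays (horizontal axis) for each member, with a dashed line of equal SD. Of the 39 points 31 lie above the line, and Pttg1 has the largest SD in WT (0.37).

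Markers of other cells moved between the same arrays. The mean log2 signal of 11 of 13 adipocyte markers was 7.33, 8.57 and 7.25 in RUNX2/MYC and 7.34, 7.49 and 7.10 in WT, so that RUNX2/MYC replicate 2, on which 28 members were highest in their group, was also highest for these markers. The brown fat gene Ucp1 had a log2 signal of 9.93 there and of 6.12 to 6.95 elsewhere. The 13 measured thymocyte markers of 15 averaged 11.05, 11.38 and 11.29 in RUNX2/MYC and 11.44, 11.37 and 11.51 in WT, lowest on replicate 1 of RUNX2/MYC like the members. The 11 measured thymic epithelial markers of 12 averaged 9.69, 9.78 and 9.82 in RUNX2/MYC and 10.04, 10.02 and 10.14 in WT, and all 11 had a negative log2 fold change (median -0.30). Markers of dendritic cells and macrophages (10 of 12) averaged 9.26, 9.28 and 9.27 in RUNX2/MYC and 9.51, 9.43 and 9.42 in WT. Fibroblast and endothelial markers (11 of 11) averaged 7.90 to 8.18 in RUNX2/MYC and 8.07 to 8.20 in WT. B-cell markers (6 of 7) averaged 7.43 to 7.64 in RUNX2/MYC and 7.68 to 7.75 in WT, and erythroid markers (4 of 8) 7.42 to 8.25 in RUNX2/MYC and 7.16 to 7.53 in WT, highest on RUNX2/MYC replicate 1. The 4 erythroid markers were split, with log2 fold changes of 1.17 for Alas2, 0.64 for Slc4a1, -0.087 for Klf1 and -0.053 for Epb42. The part of all these cell types in the members' values was not tested. Without RUNX2/MYC replicate 2 the median log2 fold change of the members was -0.0038, and without RUNX2/MYC replicate 1 it was 0.12, with 0 members called in each case.

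A further 116 genes of mitosis were listed, and 113 were measured. None passed an adjusted p under 0.05 in the limma fit, and 17 were higher and 1 lower before adjustment (p under 0.05), where 13.2% and 8.01% of all genes were. Their median log2 fold change was 0.10, with 87 of 113 positive, where 40.2% of all genes were. That share includes dim genes, and the median over the genes left by the filter on dim probe sets was 0.091, close to 0.10. The median of the other mitosis genes was 0.0064 under 75th percentile centring and -0.018 after cyclic loess. The gene with the smallest adjusted p was Depdc1a, a gene of mitotic progression, with log2 signals of 10.15, 10.52 and 10.46 in RUNX2/MYC and 9.06, 9.36 and 9.72 in WT. All RUNX2/MYC arrays were higher, at a log2 fold change of 0.99 (SE 0.18, adjusted p = 0.0519). Depdc1a had 2 probe sets, and values of the dimmer one are not given here. Anapc11, the RING subunit of the anaphase-promoting complex, followed with 0.39 (adjusted p = 0.0693), Zwilch, a kinetochore gene of the RZZ complex, with 0.39 (adjusted p = 0.108), and Cenph, of the inner kinetochore, with 0.47 (adjusted p = 0.117).

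Genes of earlier cell cycle phases stood beside them as follows. Of 51 DNA replication genes 50 were measured and none passed an adjusted p under 0.05. Before adjustment (p under 0.05 in the limma fit) 20 were higher and 1 lower, where 13.2% and 8.01% of all genes were. Their median log2 fold change was 0.21, with 48 of 50 positive, where 40.2% of all genes were. That share includes dim genes, and the median over the genes left by the filter on dim probe sets was 0.091. The median of the replication genes stayed positive under each scaling (0.29 under median centring, 0.11 under 75th percentile centring, 0.11 after quantile normalization and 0.082 after cyclic loess). Their mean log2 signal was 9.92, 10.12 and 10.01 in RUNX2/MYC and 9.79, 9.79 and 9.80 in WT. These arrays did not overlap, whereas the array means of the 39 mitosis genes did. The difference between the lists was not tested. Among 15 measured regulators of G1 (D and E cyclins, their kinases and inhibitors, E2f1, E2f2, E2f3 and Rb1) the median was 0.058. At an adjusted p under 0.05, 1 was called higher, where 2.27% of all genes were. This was Ccnd1, which encodes cyclin D1, with log2 signals of 10.58, 10.38 and 10.72 in RUNX2/MYC and 9.16, 9.03 and 8.94 in WT. Its log2 fold change was 1.52 (SE 0.12, adjusted p = 0.0137). The other D cyclins had negative log2 fold changes, -0.20 for Ccnd2 (adjusted p = 0.258) and -0.35 for Ccnd3 (adjusted p = 0.214). Before adjustment (p under 0.05 in the limma fit) 4 of the 15 were higher and 1, Ccnd3, lower, where 13.2% and 8.01% of all genes were.

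**Figure D5:**
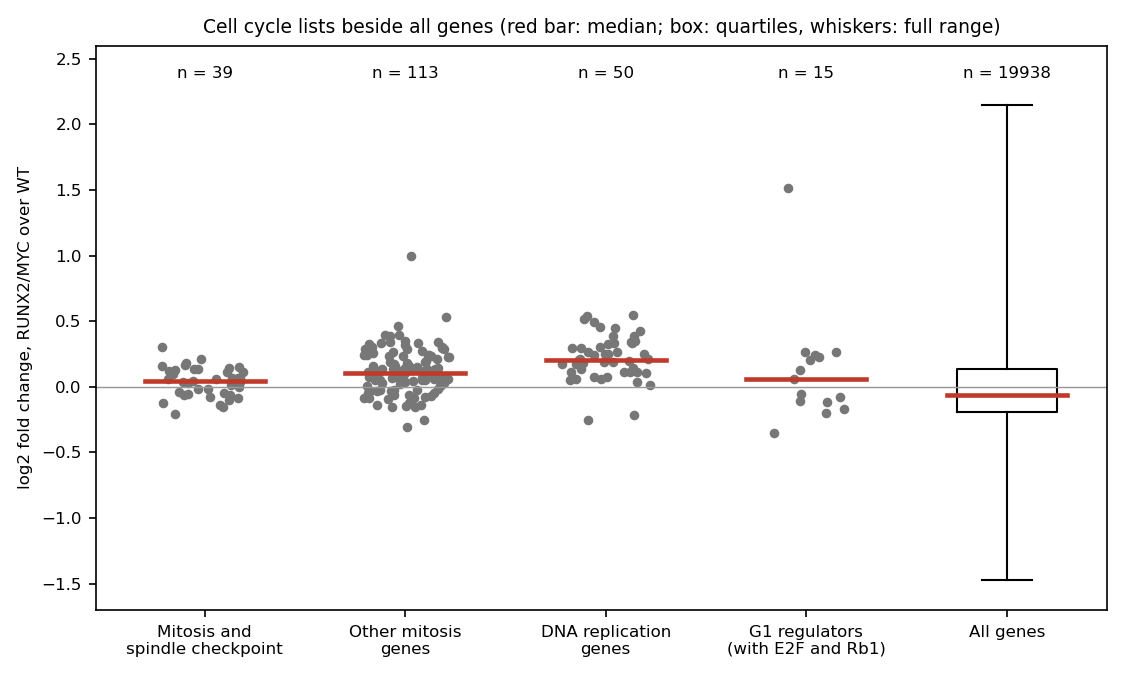
Log2 fold change (RUNX2/MYC over WT) of the 39 mitosis and spindle checkpoint genes, the 113 other mitosis genes, 50 DNA replication genes and 15 G1 regulators, E2F genes and Rb1 included (points), and of all 19938 genes (box with quartiles, whiskers over the full range). Red bars are medians, at 0.044, 0.10, 0.21, 0.058 and -0.065.

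One setting made calls among the 39 genes in both directions. With arrays weighted by their estimated quality 10 members were called higher and 1 lower, where 25.1% and 36.8% of all genes were called, so that the share of members called higher was close to that of all genes and the share called lower was below it. That estimate did not converge. With weights estimated gene by gene, chosen after seeing the data, 1 member was called higher (Bub1, adjusted p = 0.0259) and 0 lower, where 17.3% and 21.2% of all genes were called.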

How the data were processed

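Total RNA of whole thymus was hybridised to Affymetrix mouse gene arrays, 1 array per mouse sample and 6 in all. The values used are log2 signals as deposited by the authors; the submitters' processing notes name RMA (background correction, normalization between arrays and summary of probes) and Expression Console 1.4 of Affymetrix. The methods also give RMA, but run in Partek and with an adjustment for GC content, so that the software and the GC step behind the values are not settled. Log2 signals ran from 3.75 to 14.56 over 35556 probe sets. Probe sets were named through the platform annotation, which pairs 21789 with 1 symbol, and a gene was its brightest probe set. The probe set of Runx2 was taken from the study's supplementary list. Groups were compared with limma 3.58.1 in R 4.3.3 (lmFit and eBayes on group alone), with p-values adjusted by Benjamini-Hochberg across every probe set and a threshold of 0.05. The fit was also run on simulated data with independent noise and with changes larger than those of the members. That run does not measure the power for changes of the members' size or under shifts of whole arrays. Nothing in the labels beyond the words biological replicate describes the animals, so p-values measure the spread between these samples, and 3 against 3 arrays cannot give an exact permutation p below 0.1. The number of arrays limits the precision. The members and gene lists were chosen with earlier results of these data known. Values of every array are given for the 4 members with the largest positive and the 4 with the most negative log2 fold change and for 18 representatives of the roles, of which Ccnb1 was not measured; Cdc25b, Espl1, Prc1 and Ncapd2 entered by size alone, which makes 21 genes. Of the other mitosis genes, the 4 with the smallest adjusted p are named. Promoters are RefSeq's (GRCm38.p6). Alternatives covered scaling, normalization, filters, array weights, moderation, the test of the methods, a replicate block and leaving out each array.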

Additional observations from a re-analysis of the deposited data

How the results depend on the processing

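No member was called higher or lower under median centring, 75th percentile centring, quantile normalization, cyclic loess, a filter on dim probe sets, probe sets of 1 gene, trend and robust moderation, the test of the methods with either adjustment, the replicate block, or with any single array left out. With array weights 10 were higher (Cdc25b, Birc5, Incenp, Bub1, Ttk, Cdc20, Espl1, Cenpa, Kif20a and Ncapg) and 1 lower (Ccna2), and with gene-by-gene weights 1 was higher. Of the other mitosis genes, 1 was called higher after quantile normalization, under trend and robust moderation and with the replicate block (Depdc1a each time), 1 with the q values of the methods (Anapc11), 2 with the dim filter and with probe sets of 1 gene (both of these genes), 51 with array weights and 27 with gene-by-gene weights; 1 was lower (Ska2) with either kind of weights. Over all genes, 25.1% were called higher and 36.8% lower with array weights, and 17.3% and 21.2% with gene-by-gene weights. Leaving out single arrays gave 0 to 1 of the other mitosis genes called higher. The median of the members moved to -0.053 under 75th percentile centring and -0.09 after cyclic loess, and ran from -0.0038 to 0.12 without single arrays. The count of members with the larger SD in RUNX2/MYC moved to 20 after cyclic loess and to 14 with members centred on their array mean. Among the 39 members the sign turned for 8 under median centring, 12 under 75th percentile centring, 10 after quantile normalization, 18 after cyclic loess, 6 with array weights, 3 with gene-by-gene weights and 1 to 7 without single arrays, and 11 kept theirs under all 18 settings (Ccna2, Cdc25b, Plk1, Bub1, Ttk, Cdc20, Espl1, Kif11, Kif23, Top2a and Ncapd2). Some of these 11 came close to 0, such as Kif23 at -0.00088 without RUNX2/MYC replicate 1 and Kif11 at -0.013 under median centring. The filters, the moderation, the test of the methods and the replicate block leave fold changes as they are and could not turn a sign. The cause of the shifts under the other settings was not tested. The mean of all probe sets of a gene left the median at 0.044 and was not run for the counts of calls. Deviations of arrays with the same replicate number correlated at 0.501, -0.148 and 0.606 for replicates 1, 2 and 3. Those of replicates 1 and 3 were the highest of all pairs, while RUNX2/MYC replicate 2 correlated best with WT replicate 3 (0.209). Whether the numbers mark a pairing of the samples was not tested, and the main fit did not use them. With the replicate block 0 members were called, the smallest adjusted p being 0.088 (Espl1).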
